A study of Homo sapiens with 19 samples.

Results

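The 9 genes described here were NFE2L2 and KEAP1, which encode the transcription factor NRF2 and its inhibitor, and 7 genes that NRF2 is known to activate, GCLC, GCLM, SLC7A11, TXNRD1, SRXN1, NQO1 and HMOX1. They were taken by gene symbol from both deposited tables of normalised counts, and all 9 were found among the 34825 symbols of each table. Each of the 9 passed the filter of a mean of at least 10 normalised counts, which left 14034 genes to be tested in the INO80 experiment and 14312 in the drug experiment. All 19 libraries came from HepG2, a line of human liver cancer cells kept for few passages. In the INO80 experiment cells received 50 nM of the control siRNA NTG, of siINO80#1 or of siINO80#2, with 3 libraries per group. Both siINO80 siRNAs target INO80, the ATPase of the INO80 chromatin remodelling complex. In the drug experiment cells were kept in DMSO or in 1 uM EPZ-6438, an inhibitor of the histone methyltransferase EZH2, from 3 days before transfection. These cells received NTG or siMCRS1, which targets MCRS1, a subunit shared by the INO80 and NSL complexes. DMSO-treated cells gave 2 libraries for NTG and 3 for siMCRS1, EPZ-6438-treated cells gave 3 for NTG and 2 for siMCRS1, and RNA was taken 72 h after transfection in both experiments. MCRS1 was targeted with a single siRNA, and no line without transfection was part of the groups.

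In unstressed cells KEAP1 binds NRF2 and presents it to a CUL3 ubiquitin ligase for degradation. Oxidants and electrophiles modify KEAP1, so that NRF2 accumulates, pairs with a small MAF protein and binds antioxidant response elements in its target genes. BACH1 competes for the same elements. In liver cells the targets supply glutathione and thioredoxin, reduce quinones and break down heme, and because NRF2 is controlled mainly at the level of the protein, its mRNA does not measure its activity.

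On GRCh38.p14, the RefSeq annotation places NFE2L2 at chr2:177230303-177264727, KEAP1 at chr19:10486125-10503356, GCLC at chr6:53497341-53545101, GCLM at chr1:93885199-93909430 and SLC7A11 at chr4:138164097-138242349. TXNRD1 lies at chr12:104215779-104350307, SRXN1 at chr20:646615-653200, NQO1 at chr16:69709401-69726560 and HMOX1 at chr22:35381096-35394207. TXNRD1 and HMOX1 are on the plus strand and the other 7 on the minus strand. Values are per gene, with all exons and untranslated parts counted together. In GENCODE, NFE2L2 overlaps HNRNPA3 and AGPS on the opposite strand, both of which have rows in the tables, and TXNRD1 overlaps EID3 on its own strand. SRXN1 overlaps a protein-coding gene without values here, ENSG00000270299, on its own strand. Several members, among them GCLC and SLC7A11, overlap noncoding genes on the opposite strand. These overlaps are of whole genes and not of exons. Whether the counting used the strand of the reads is not stated, so whether overlapping genes add to the values of NFE2L2 or other members is not known. EID3 reached at most 12.3 normalised counts in the INO80 table and 44.4 in the drug table, against at least 7250.2 and 15677 for TXNRD1.

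Promoter windows from RefSeq (GRCh38.p14, 250 bases before to 50 after a start) were matched for 7 of the 9 members. HMOX1 and SLC7A11 were not matched. The core of the antioxidant response element, TGACNNNGC, was searched on both strands, and 13.3% of all 35116 windows held it. GCLM held 1 match, TXNRD1 held 2 at its upstream start and 1 at its downstream start, and KEAP1 held 2 at its downstream start. No match was found in the windows of GCLC, SRXN1, NQO1 or NFE2L2, or at the upstream start of KEAP1, and this says only that those letters are not in these windows. The stretches from 120 bases before the start to its first base are shown for GCLM and for the upstream start of TXNRD1, which hold the core and whose mRNA differed between groups below, and for NQO1, which does not hold it. The windows of GCLC and SRXN1, whose mRNA also differed between groups, do not hold it either and are not shown. Matches are in capitals and read 5′ to 3′ along the gene, so that a match on the opposite strand appears as its reverse complement.
GCLM, chr1:93909430-93909550, minus strand: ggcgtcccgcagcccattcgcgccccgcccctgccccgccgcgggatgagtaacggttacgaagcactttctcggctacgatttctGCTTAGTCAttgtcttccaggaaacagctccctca
TXNRD1, chr12:104215659-104215779, plus strand: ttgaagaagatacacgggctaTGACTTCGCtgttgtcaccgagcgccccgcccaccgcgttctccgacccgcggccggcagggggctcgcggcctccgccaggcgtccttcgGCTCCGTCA
NQO1, chr16:69726560-69726680, minus strand: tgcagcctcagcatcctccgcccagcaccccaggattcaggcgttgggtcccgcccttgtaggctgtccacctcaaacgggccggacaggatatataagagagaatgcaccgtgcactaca
The match at the downstream start of TXNRD1 and those at the downstream start of KEAP1 are shown with 10 bases on each side.
TXNRD1, chr12:104286920-104286948, plus strand: gtggatttctGCTTTGTCAttctgactct
KEAP1, chr19:10502807-10502835, minus strand: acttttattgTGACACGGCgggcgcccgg
KEAP1, chr19:10502784-10502812, minus strand: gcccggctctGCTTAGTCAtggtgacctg
The match in GCLM began 34 bases before the start and that at the downstream start of TXNRD1 102 bases before it, both on the opposite strand. These are descriptions of sequence, and no binding of NRF2 was measured.

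Depth ran from 17093574 to 25369547 reads per library for the INO80 table and from 26038505 to 47397233 for the drug table, so that the level worth 3 reads, at most 4.30 normalised counts, was far below every value of the 9 genes. INO80 mRNA fell in the INO80 experiment by 1.05 (siINO80#1) and by 1.46 (siINO80#2) on the log2 scale. MCRS1 fell by 3.66 both in DMSO and in EPZ-6438, where INO80 also fell, by 0.27 (adjusted p = 0.0387) and by 0.35 (adjusted p = 0.00966). The siINO80#2 library C stood apart from its mates. The SD of its log2 deviations from the group mean was 0.353, against 0.235 to 0.290 in the other 8 libraries of that experiment, and MT-CO1 took 4.02% of its reads against 2.10 to 2.24% in the other siINO80#2 libraries. Some values of siINO80#2 are also given without it. All 7 hepatocyte markers listed were detected in every library, from at least 1879 normalised counts for TTR to at least 109073 for ALB, while HBB did not exceed 3.37 and DCN did not exceed 21.8. The summed level of 4 fibroblast markers, mostly COL1A1 and PDGFRB, was 448 to 473 with siINO80#1 against 247 to 277 with NTG and 274 to 304 with siINO80#2. Of 7 hepatocyte markers, 4 were lower and none higher with siINO80#2 (median log2 fold change -0.57), against 28.4% of all genes called lower and 26.6% higher. With siINO80#1, 1 was lower and none higher, against 20.8% and 20.7% of all genes. Of the endothelial markers PECAM1 alone was tested in the INO80 table, and it was higher with siINO80#2 (log2 0.49, adjusted p = 0.00594), with a summed level of the 3 markers of 280 to 340 against 207 to 244 with NTG, while CDH5 and VWF did not exceed 11.3 and 12.5. The fibroblast sum was 555 to 903 with siMCRS1 against 345 to 366 with NTG in DMSO, and 830 to 886 against 248 to 397 in EPZ-6438. The sum of 3 blood markers, nearly all CD68, was 715 to 843 with siMCRS1 against 982 to 1054 with NTG in DMSO. In EPZ-6438 it was 595 to 692 against 921 to 1609. The part of these markers in the results below was not tested. Nothing in the sources used here says that replicates were separate cultures, so the p-values measure the spread between these libraries, which may be technical. In bulk libraries a change in the number of cells expressing a gene and a change in RNA per cell cannot be told apart.

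In control cells NQO1 was by far the most abundant of the 9 mRNAs. Per kilobase of the Ensembl canonical transcript, its level in NTG libraries of the INO80 experiment was 5801 normalised counts (5347 to 6183, n = 3). NFE2L2 (2096 per kilobase) and TXNRD1 (1963) followed with overlapping ranges, and then came SRXN1 (1215) and GCLC (713). KEAP1 (556) and HMOX1 (501) did not overlap with each other, while the wide range of SLC7A11 (544, from 473 to 674) overlapped both, and GCLM (234) was lowest. In the DMSO with NTG libraries of the drug experiment (n = 2) NQO1 was again highest at 11022 per kilobase, TXNRD1 (5878) and NFE2L2 (4489) came next, and GCLM (823) was again lowest, with a range of 798 to 847 that overlapped those of SLC7A11 (614 to 1166) and HMOX1 (818 to 1015). Both tables were scaled separately, so levels are not compared between them. Transcripts of a gene differ in length, which makes these levels approximate.

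The comparison of siMCRS1 with NTG asked which genes respond to loss of MCRS1. In DMSO, 7 of the 9 genes rose and none fell, against 23.1% of all genes tested called higher and 24.6% called lower. edgeR gave the same count, and without the DMSO with NTG library numbered 1 it was 5. In EPZ-6438, with no library in common, the same 7 genes rose and none fell, against 26.8% and 26.9% of all genes. The median log2 fold change of the 9 genes was 0.73 in DMSO and 0.87 in EPZ-6438, against medians over all genes of 0.00 and 0.01. With quantile normalization the medians of the 9 were 0.44 and 0.50, with 5 higher and 1 lower in DMSO and 5 higher and none lower in EPZ-6438. With equal totals 5 were higher and none lower in both. Of all 14312 genes, equal totals called 1893 higher and 5098 lower in DMSO, and 2296 and 5316 in EPZ-6438. GCLC, SLC7A11, TXNRD1, GCLM and SRXN1 rose most, NFE2L2 and KEAP1 rose less, and NQO1 and HMOX1 did not pass the test.

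GCLC, the catalytic subunit of glutamate-cysteine ligase, which makes the first bond of glutathione, rose most clearly. Its normalised counts were 5619 and 5907 in DMSO with NTG and 13239, 18713 and 14586 in DMSO with siMCRS1. They were 4946, 4312 and 4983 in EPZ-6438 with NTG and 15753 and 16143 in EPZ-6438 with siMCRS1. The lowest siMCRS1 library was far above the highest NTG library. The rise was 2.66-fold in DMSO (log2 1.41, SE 0.14, adjusted p = 3.69e-05) and 3.37-fold in EPZ-6438 (log2 1.75, SE 0.14, adjusted p = 8.46e-06).

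GCLM, the modifier subunit of the same enzyme, which lowers its need for glutamate and its inhibition by glutathione, moved alongside. The DMSO with NTG libraries held 3896 and 4137 normalised counts and the DMSO with siMCRS1 libraries 6831, 9358 and 7703. In EPZ-6438 the values were 3744, 2504 and 3662 with NTG and 8174 and 7783 with siMCRS1. The groups did not overlap, and GCLM rose 1.97-fold in DMSO (log2 0.98, SE 0.18, adjusted p = 0.00113) and 2.45-fold in EPZ-6438 (log2 1.29, SE 0.18, adjusted p = 0.000152).

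SLC7A11, the transporter subunit that brings in cystine, the source of cysteine for glutathione, varied widely between replicates in this experiment, with a coefficient of variation of 25.8 to 43.8% in the 4 groups. It stood at 5924 and 11244 normalised counts in DMSO with NTG and at 13678, 22378 and 25039 in DMSO with siMCRS1. In EPZ-6438 it was 3589.8, 4719 and 6252 with NTG and 13566 and 19621 with siMCRS1. All siMCRS1 libraries were above all NTG libraries, but the DMSO with NTG libraries differed more from each other than the higher of them did from the lowest siMCRS1 library. SLC7A11 rose 2.42-fold in DMSO (log2 1.27, SE 0.33, adjusted p = 0.0085) and 3.45-fold in EPZ-6438 (log2 1.79, SE 0.33, adjusted p = 0.001). Without the DMSO with NTG library numbered 1, the change in DMSO was 0.81 and no longer passed (adjusted p = 0.115).

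TXNRD1, the cytosolic reductase that regenerates thioredoxin, rose in both treatments. It was at 19920.0 and 25459 normalised counts in DMSO with NTG and at 37321, 53514 and 46051 in DMSO with siMCRS1. It was at 16793, 15677 and 18279.5 in EPZ-6438 with NTG and at 36657 and 43865 in EPZ-6438 with siMCRS1. The lowest siMCRS1 library was above the highest NTG library of the whole experiment, and the rise was 2.00-fold in DMSO (log2 1.00, SE 0.16, adjusted p = 0.000661) and 2.38-fold in EPZ-6438 (log2 1.25, SE 0.16, adjusted p = 0.000129).

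SRXN1, which encodes sulfiredoxin and restores overoxidised peroxiredoxins, went up less. Its normalised counts were 7497 and 7605 in DMSO with NTG against 11804, 14968 and 11159.6 with siMCRS1, and 7278, 5962 and 6656 in EPZ-6438 with NTG against 11783 and 12319.7 with siMCRS1. The groups were apart, and SRXN1 rose 1.66-fold in DMSO (log2 0.73, SE 0.13, adjusted p = 0.00111) and 1.82-fold in EPZ-6438 (log2 0.87, SE 0.13, adjusted p = 0.000304). With quantile normalization it was 0.44 and 0.50. The rise of GCLC, GCLM, TXNRD1 and SRXN1 passed the test in both treatments under every alternative that was run, as listed in the closing section.

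**Figure D1:**
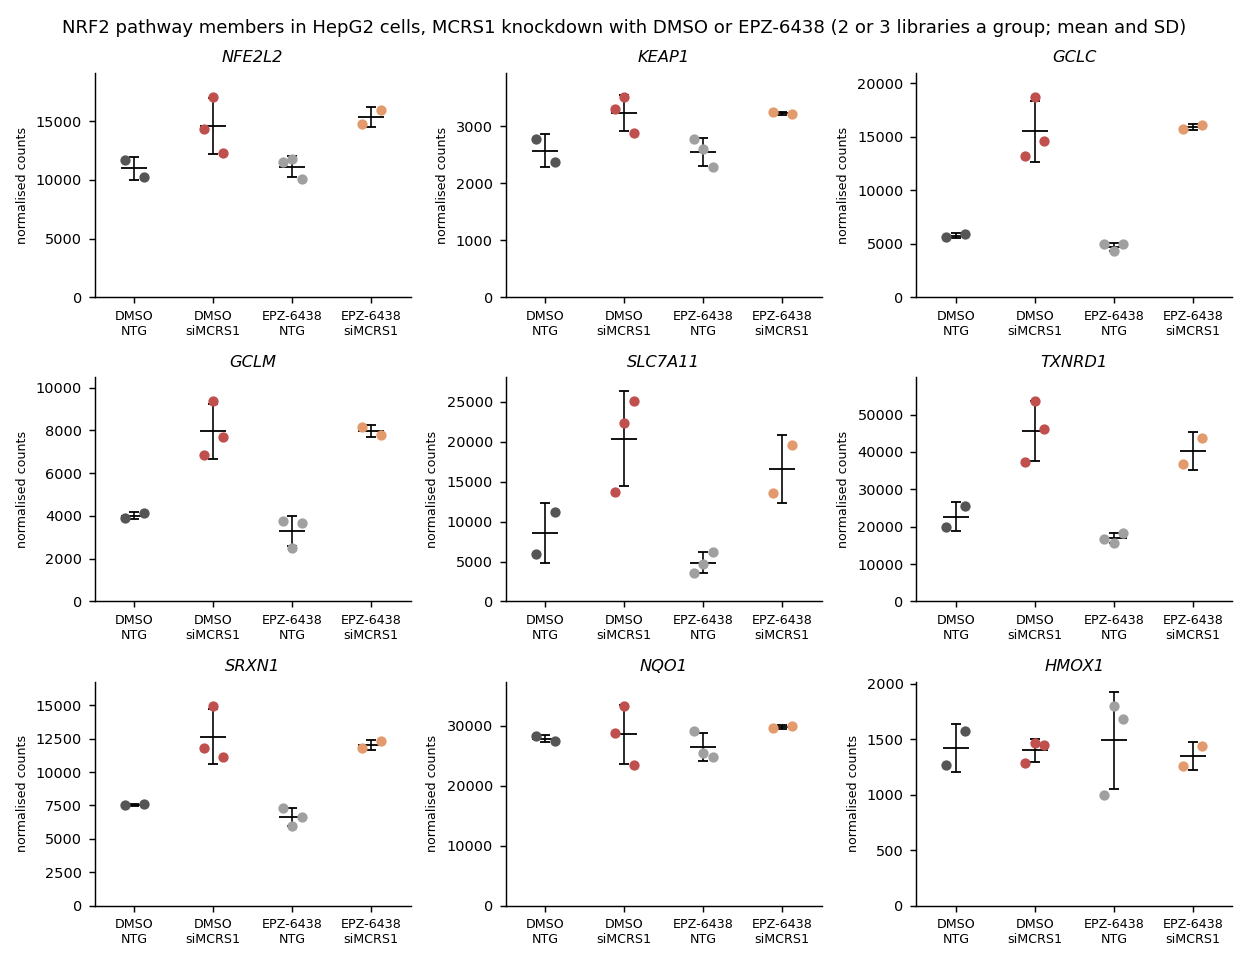
Normalised counts (y axis, from 0) of the 9 genes in each library of the drug experiment, by group (x axis). Points are libraries, and bars are the mean and SD of 2 or 3 libraries. GCLC, GCLM, SLC7A11, TXNRD1 and SRXN1 are higher in every siMCRS1 library than in the NTG libraries of the same treatment, while NQO1 in DMSO and HMOX1 in both treatments overlap.

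NQO1, the quinone reductase often used as a readout of NRF2, did not follow these genes. Its normalised counts were 28195 and 27379 in DMSO with NTG and 28723, 33314 and 23497 in DMSO with siMCRS1. In EPZ-6438 they were 29059, 25449 and 24736 with NTG and 29588 and 29989 with siMCRS1. The change was 0.02 on the log2 scale in DMSO (95% interval -0.29 to 0.33, adjusted p = 0.909) and 0.18 in EPZ-6438 (-0.13 to 0.49, adjusted p = 0.311). These intervals exclude the rise measured for GCLC in the same libraries. With equal totals the values were -0.21 and -0.06, and after quantile normalization -0.40 in DMSO, which passed (adjusted p = 0.0151), and -0.21 in EPZ-6438.

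HMOX1, the stress-induced heme oxygenase, was at 1270.5 and 1578 normalised counts in DMSO with NTG and at 1284, 1469 and 1449.5 with siMCRS1. In EPZ-6438 it was at 993, 1803 and 1682 with NTG and at 1259 and 1439 with siMCRS1. The groups overlapped in both treatments. The differences were -0.02 (95% interval -0.50 to 0.47, adjusted p = 0.955) and -0.10 (-0.59 to 0.38, adjusted p = 0.723) on the log2 scale.

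To set these genes against each other without the scaling of libraries, each was divided by NQO1 of the same library, a measure chosen after the values were seen and given as a description. GCLC counts were 19.9 to 21.6% of NQO1 counts in DMSO with NTG and 46.1 to 62.1% in DMSO with siMCRS1. In EPZ-6438 they were 16.9 to 20.1% with NTG and 53.2 to 53.8% with siMCRS1. TXNRD1 counts moved from 70.7 to 93.0% of NQO1 in DMSO with NTG to 130 to 196% with siMCRS1, and GCLM counts from 13.8 to 15.1% to 23.8 to 32.8%. HMOX1 counts stayed between 3.42 and 7.09% of NQO1 over all 10 libraries. In the INO80 experiment NQO1 itself fell with both siRNAs, as given below, so the ratio there also carries that fall. GCLC counts were 16.4 to 21.0% of NQO1 with NTG, 33.5 to 36.3% with siINO80#1 and 35.3 to 47.6% with siINO80#2, and the siINO80 groups overlapped. TXNRD1, which was not called there, went from 49.0 to 55.0% with NTG to 70.8 to 78.6% and 74.2 to 94.7%.

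**Figure D2:**
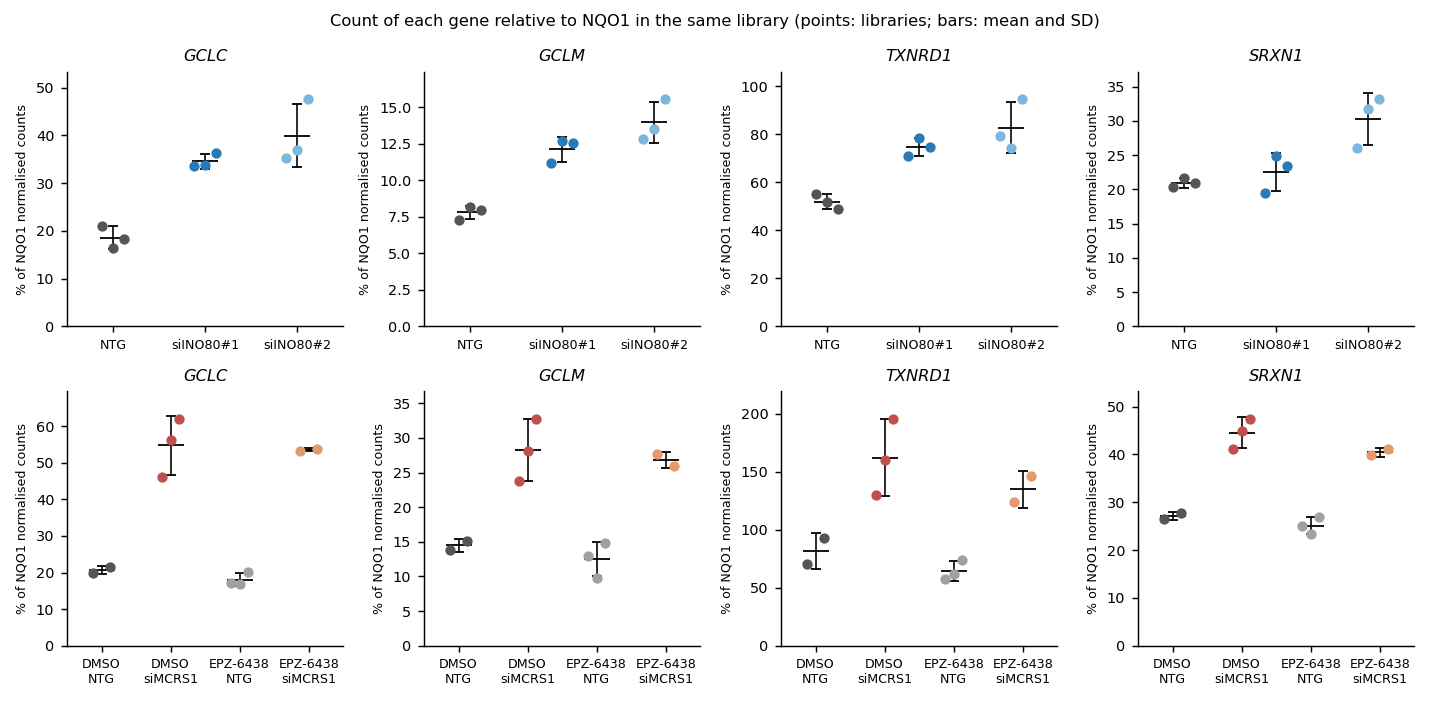
Counts of GCLC, GCLM, TXNRD1 and SRXN1 as a percentage of NQO1 counts in the same library (y axis, from 0), by group (x axis). The top row is the INO80 experiment and the bottom row the drug experiment, points are libraries and bars are the mean and SD. GCLC lies at 16.4 to 21.0% in NTG libraries of the INO80 experiment and at 33.5% or more with either siINO80 siRNA, where NQO1 itself was lower.

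NFE2L2 and KEAP1, the factor and its inhibitor, both rose modestly with siMCRS1. NFE2L2 was at 11687 and 10274 normalised counts in DMSO with NTG and at 14361, 17053 and 12323 with siMCRS1, and at 11504, 11812 and 10088 against 14755 and 15984 in EPZ-6438. KEAP1 was at 2779 and 2364 against 3294, 3507 and 2880.5 in DMSO, and at 2774, 2599 and 2284 against 3246 and 3206 in EPZ-6438. The groups did not overlap for either gene. NFE2L2 rose 1.32-fold (log2 0.40, SE 0.14, adjusted p = 0.0336) and 1.38-fold (log2 0.47, SE 0.14, adjusted p = 0.0145), and KEAP1 rose 1.25-fold (log2 0.33, SE 0.12, adjusted p = 0.0451) and 1.27-fold (log2 0.34, SE 0.12, adjusted p = 0.034), in DMSO and EPZ-6438. Neither call outlived a change of scaling, and both also rest on single libraries. In DMSO NFE2L2 was not called without either NTG library or without siMCRS1 library 1 or 2 (0.28 to 0.49, adjusted p = 0.0586 to 0.199), nor in EPZ-6438 without siMCRS1 library B (adjusted p = 0.107). KEAP1 lost the call in 11 of 21 alternatives in DMSO, with 0.21 (adjusted p = 0.299) without NTG library 3, and in 8 of 20 in EPZ-6438. When libraries were scaled to equal totals, which moved the median of all genes by -0.23 in both treatments, NFE2L2 changed by 0.16 and 0.23 (adjusted p = 0.257 and 0.111) and KEAP1 by 0.09 and 0.10 (adjusted p = 0.511 and 0.446).

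Other regulators of NRF2 rose alongside. Of 15 tested, 12 were higher and none lower with siMCRS1 in DMSO, against 23.1% of all genes higher and 24.6% lower, with a list median of 0.72 on the log2 scale. In EPZ-6438 12 were higher and none lower, against 26.8% and 26.9%. With equal totals 10 were higher and 1 lower in DMSO, and 11 higher and 1 lower in EPZ-6438. Of all 14312 genes, that scaling called 1893 higher and 5098 lower in DMSO, and 2296 and 5316 in EPZ-6438. MAFK, a small MAF partner of NRF2, rose from 834 ± 104 normalised counts (SD, n = 2) to 1977 ± 298 (n = 3) in DMSO, by 1.24 on the log2 scale (adjusted p = 0.000112), and by 1.19 in EPZ-6438 (adjusted p = 8.8e-05). MAFG rose by 0.75 and 0.74, and BACH1, the competitor of NRF2, by 0.74 (adjusted p = 0.00436) and 0.71 (adjusted p = 0.00448). SQSTM1, which encodes p62, an autophagy receptor that sequesters KEAP1, rose from 17498 ± 771 to 32370 ± 8039 in DMSO (log2 0.86, adjusted p = 0.00302) and by 0.80 in EPZ-6438. CUL3, the scaffold of the ligase for NRF2, rose by 0.38 (adjusted p = 0.00883) and 0.48 (adjusted p = 0.00184). MAFF rose by 0.85 in DMSO (adjusted p = 0.0425) and changed by 0.34 in EPZ-6438 (adjusted p = 0.386). With equal totals CUL3 in DMSO (0.14, adjusted p = 0.203) and MAFF (0.61, adjusted p = 0.121) lost the call, and the others named here kept it.

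The comparison of EPZ-6438 with DMSO asked whether inhibition of EZH2 changes expression. In NTG cells none of the 9 genes was called by limma, edgeR or DESeq2, where 0.321% of all genes were called higher and 0.0629% lower by limma. SLC7A11 and TXNRD1 had unadjusted p-values under 0.05. With the values given above, every EPZ-6438 library was below every DMSO library for GCLC, GCLM, TXNRD1 and SRXN1. The share of all genes separated in this way was not counted, and groups of 3 and 2 libraries can separate without a change. GCLM (-0.30, adjusted p = 0.405) and SRXN1 (-0.19, adjusted p = 0.492) did not pass by limma. The differences of SLC7A11 (-0.79, 95% interval -1.51 to -0.06, adjusted p = 0.255), TXNRD1 (-0.42, -0.78 to -0.05, adjusted p = 0.235) and GCLC (-0.28, -0.58 to 0.02, adjusted p = 0.32) did not pass. Either DMSO with NTG library decided their size, since SLC7A11 was -1.25 without library 1 and -0.32 without library 3, and TXNRD1 was -0.59 and -0.24. In siMCRS1 cells none was called by any of these tools and none had an unadjusted p under 0.05, against 0.0838% of all genes called higher and 0.00699% lower. GCLM there differed by 0.01 (95% interval -0.37 to 0.40) and NQO1 by 0.08 (-0.23 to 0.39).

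The interaction asked whether the response to siMCRS1 differs between DMSO and EPZ-6438. limma called none of the 14312 genes (0% higher and 0% lower) at the adjusted threshold, with 336 at an unadjusted p under 0.05, edgeR called none and DESeq2 called 5. None of the 9 genes was called by any of these tools, and none had an unadjusted p under 0.05 by limma. The change of SLC7A11 was larger in EPZ-6438 by 0.51 (95% interval -0.51 to 1.54) and that of GCLC by 0.34 (-0.09 to 0.76), with adjusted p = 1 for both. With single libraries left out the value for SLC7A11 ranged from 0.051, without the DMSO with NTG library numbered 3, to 0.98, without that numbered 1. The intervals are wide, so a difference of the size of the siMCRS1 effect on SRXN1 was not detectable for SLC7A11.

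In the INO80 experiment each siINO80 siRNA was compared with the same 3 NTG libraries, so the comparisons are not independent. With siINO80#1, 1 of the 9 genes rose and 3 fell, against 20.7% of all genes called higher and 20.8% called lower. With siINO80#2, 1 rose and 4 fell, against 26.6% and 28.4%. With 9 genes these counts are a description. The median log2 fold change of the 9 was -0.14 with siINO80#1 and -0.25 with siINO80#2, against 0.00 over all genes in both. Without the siINO80#2 library C the median with siINO80#2 was -0.11, with 2 genes higher and 4 lower. GCLC rose with both siRNAs, and SLC7A11 and NQO1 fell with both.

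GCLC was at 2836, 2554 and 2709 normalised counts with NTG, at 3625, 3609.9 and 3657 with siINO80#1 and at 3967, 3867 and 3711 with siINO80#2, without overlap between any of the 3 groups. It rose 1.35-fold with siINO80#1 (log2 0.43, SE 0.06, adjusted p = 0.000363) and 1.43-fold with siINO80#2 (log2 0.51, SE 0.06, adjusted p = 5.75e-05). Without the siINO80#2 library C the rise was 0.54 (adjusted p = 4.24e-05). Its partner GCLM was at 984, 1269 and 1179 with NTG, at 1207, 1352 and 1263 with siINO80#1 and at 1443, 1415 and 1213 with siINO80#2, and the groups overlapped. GCLM differed by 0.16 (SE 0.10, adjusted p = 0.246) and 0.25 (SE 0.10, adjusted p = 0.064). With siINO80#2 it passed in 5 of 20 alternatives, among them edgeR and the fit without the library C (0.33, adjusted p = 0.0188).

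SLC7A11 moved opposite to GCLC. Its normalised counts were 4664, 6504 and 4560.2 with NTG, 3605, 4175 and 3498 with siINO80#1 and 3148, 3359.7 and 3092 with siINO80#2, and the groups followed each other without overlap. It fell to 0.72 of the NTG level with siINO80#1 (log2 -0.46, SE 0.13, adjusted p = 0.0134) and to 0.62 with siINO80#2 (log2 -0.69, SE 0.13, adjusted p = 0.000883; -0.67 and 0.00247 without the library C). Without the siINO80#1 library C the fall with siINO80#1 was -0.41 and just missed the threshold (adjusted p = 0.0538), and without the high NTG library B it was -0.30 and still passed.

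NQO1 was at 13481, 15587 and 14809 normalised counts with NTG, at 10814, 10684 and 10066 with siINO80#1 and at 11223, 10465 and 7799 with siINO80#2. Every NTG library was above every siINO80 library. NQO1 fell by 0.47 on the log2 scale with siINO80#1 (SE 0.12, adjusted p = 0.0106) and by 0.59 with siINO80#2 (SE 0.12, adjusted p = 0.00211), and by 0.43 without the low siINO80#2 library C (adjusted p = 0.000888).

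HMOX1 was at 753, 791 and 792 normalised counts with NTG, at 699, 728 and 598 with siINO80#1 and at 591, 559 and 491 with siINO80#2. Here too the 3 groups did not overlap. HMOX1 fell by 0.51 with siINO80#2 (SE 0.10, adjusted p = 0.00109; -0.44 and 0.00228 without the library C), and its difference of -0.21 with siINO80#1 did not pass (adjusted p = 0.106).

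TXNRD1 was at 7417, 8065 and 7250.2 normalised counts with NTG, at 7657, 8402 and 7527 with siINO80#1 and at 8925, 7766 and 7383 with siINO80#2. The groups overlapped, and the differences of 0.05 (95% interval -0.14 to 0.25) and 0.08 (-0.11 to 0.27), both -0.03 with equal totals, exclude a change of the size seen with siMCRS1. SRXN1 was at 2737, 3385 and 3089 with NTG, at 2108, 2650.2 and 2359 with siINO80#1 and at 2914, 3314 and 2587 with siINO80#2. It fell by 0.37 with siINO80#1 (SE 0.12, adjusted p = 0.0243) and differed by -0.07 with siINO80#2 (adjusted p = 0.657). That fall did not pass when any of 4 libraries was left out, NTG B or C or siINO80#1 A or C, with values of -0.37 to -0.29 and adjusted p = 0.0631 to 0.0955.

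NFE2L2 was at 5209, 4994 and 5178 normalised counts with NTG, at 5189, 4305 and 4874 with siINO80#1 and at 3886, 3452 and 4283 with siINO80#2. Only the siINO80#2 libraries were all below the NTG libraries. NFE2L2 fell by 0.41 with siINO80#2 (SE 0.09, adjusted p = 0.0033; -0.48 and 0.000771 without the library C) and differed by -0.10 with siINO80#1 (adjusted p = 0.411). KEAP1 was at 1411, 1461 and 1404 with NTG, at 1304, 1272 and 1307 with siINO80#1 and at 1286, 1356 and 979.7 with siINO80#2. All NTG libraries were highest, but the differences of -0.14 (adjusted p = 0.332) and -0.25 (adjusted p = 0.065) did not pass, and the second was -0.11 (adjusted p = 0.143) without the low library C.

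**Figure D3:**
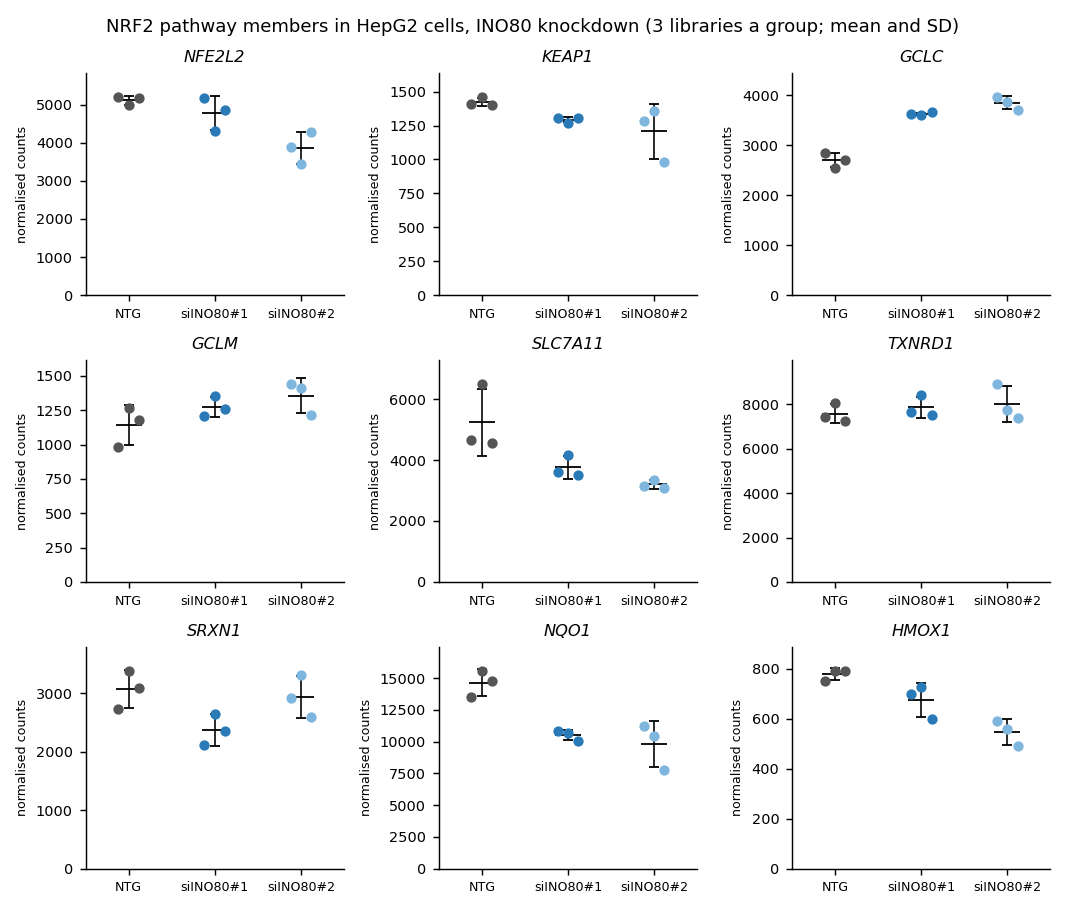
Normalised counts (y axis, from 0) of the 9 genes in each library of the INO80 experiment, by group (x axis). Points are libraries, and bars are the mean and SD of 3 libraries. GCLC is higher and SLC7A11 and NQO1 are lower in every siINO80 library than in every NTG library, and the lowest NQO1 value, 7799, is the siINO80#2 library C.

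The siINO80 siRNAs were compared with each other to see where they differ. Of the 9 genes none was higher and 2 were lower with siINO80#2 than with siINO80#1 by limma, against 9.48% of all genes called higher and 12.6% called lower. DESeq2 also called SRXN1 higher with siINO80#2 (0.31, adjusted p = 0.041), and limma gave it an unadjusted p of 0.023. NFE2L2 was lower by 0.31 on the log2 scale (SE 0.09, adjusted p = 0.0373) and HMOX1 by 0.30 (SE 0.10, adjusted p = 0.048), both close to the threshold and lost in 10 and 12 of 20 alternatives. GCLC differed by 0.08 (95% interval -0.06 to 0.22), NQO1 by -0.11 (-0.39 to 0.16) and SLC7A11 by -0.23 (-0.51 to 0.05), none of which passed. INO80 itself was lower with siINO80#2 than with siINO80#1 by 0.40 (adjusted p = 0.00577).

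**Figure D4:**
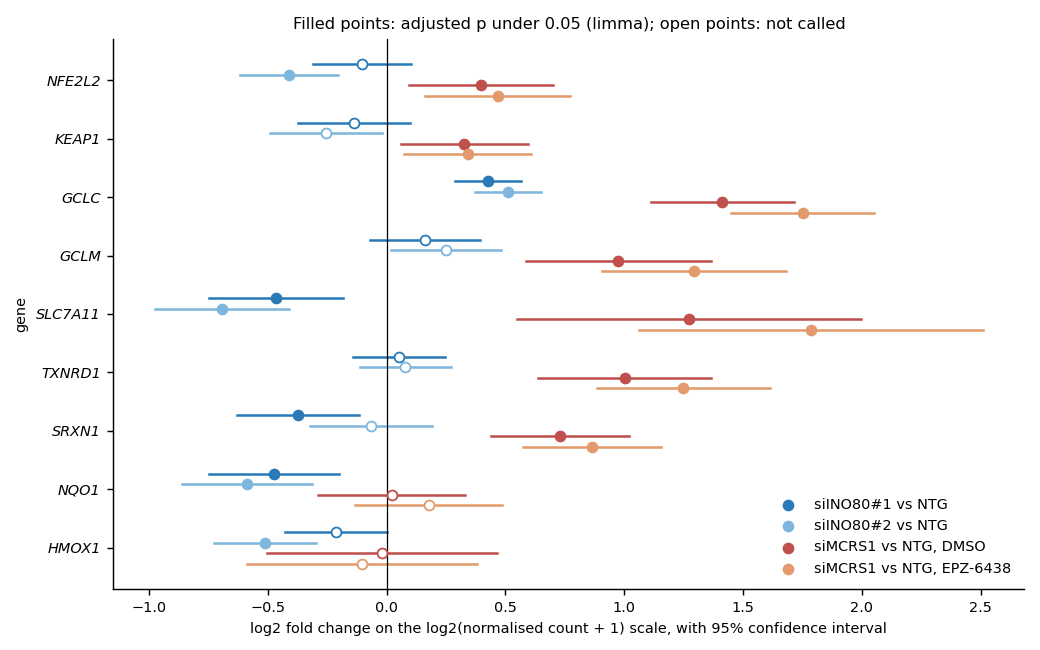
Log2 fold change of the 9 genes (y axis) in the comparisons of siINO80#1, siINO80#2 and siMCRS1 with NTG, with the 95% confidence interval from limma (x axis). Filled points are called at an adjusted p under 0.05. GCLC lies right of 0 in all 4 comparisons, and SLC7A11 lies left of 0 with the siINO80 siRNAs, at -0.46 and -0.69, and right of 0 with siMCRS1, at 1.27 and 1.79.

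Set side by side, GCLC was called higher with siINO80#1, siINO80#2 and siMCRS1 in both treatments. SLC7A11 was called lower with both siINO80 siRNAs and higher with siMCRS1. NQO1 was called lower with both siINO80 siRNAs and was not called with siMCRS1. The experiments had separate control libraries and separate scaling, and the difference between them was not tested.

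A further 57 genes of the pathway, sorted by role, were listed, of which 55 were tested and ME1 and CBR3 did not pass the filter. With siINO80#1, 8 were higher and 26 lower (median -0.26), and with siINO80#2, 12 were higher and 27 lower (median -0.28), against medians of 0.00 over all genes. Of all genes, 20.7% were called higher and 20.8% lower with siINO80#1, and 26.6% and 28.4% with siINO80#2, and every count of a list with these siRNAs below is to be read beside these shares. With equal totals siINO80#2 gave 7 higher and 29 lower, where 2856 of all 14034 genes were called higher and 4525 lower. Among carbonyl, quinone, heme and iron genes, 14 of 16 were lower and none higher with siINO80#1 and 12 were lower and none higher with siINO80#2, with list medians of -0.63 and -0.69. edgeR gave the same counts, and leaving out the siINO80#2 library C left 12 lower and none higher.

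PIR, an iron-binding nuclear protein induced by NRF2, fell from 566 ± 35.1 normalised counts (SD, n = 3) to 245 ± 21.98 with siINO80#1, a log2 change of -1.20 (adjusted p = 2.84e-05). AKR1B10, an aldo-keto reductase, fell from 5406 ± 815 to 2334 ± 134 with siINO80#1, also by 1.20 (adjusted p = 1.7e-05), and was 4828 ± 470 with siINO80#2, which made it higher by 1.05 than with siINO80#1 (adjusted p = 0.00023). Reads of AKR1B10, and of AKR1C1, AKR1C2 and AKR1C3 in the same list, can be shared with close relatives. Their values are thus uncertain, and the list counts may not stand for that many separate genes. MGST1, a microsomal glutathione transferase, fell from 3589 ± 211 to 1273 ± 111 with siINO80#2, to 0.35 of the NTG level (adjusted p = 3.53e-07), and was 2097 ± 97.2 with siINO80#1. It was thus lower by 0.72 with siINO80#2 than with siINO80#1 (adjusted p = 0.000339). TXNRD2, the mitochondrial relative of TXNRD1, fell from 508 ± 30.02 to 191 ± 44.8 with siINO80#2, by 1.43 (adjusted p = 3.86e-05).

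In contrast TXNIP, which binds and inhibits thioredoxin, rose from 861 ± 167 normalised counts to 2009 ± 156 with siINO80#1, a log2 change of 1.24 (adjusted p = 0.00108), and to 2969 ± 1044 with siINO80#2, by 1.74 (adjusted p = 6.15e-05; 1.99 without the library C). Of the 15 regulators, 6 rose and none fell with siINO80#1, and 9 rose and none fell with siINO80#2. With equal totals these became 5 higher and 1 lower, and 5 higher and 2 lower. Of all 14034 genes, that scaling called 2163 higher and 3277 lower with siINO80#1, and 2856 and 4525 with siINO80#2. MAFG rose by 0.41 (adjusted p = 0.00206) and 0.31 (adjusted p = 0.00722). BACH1 rose by 0.31 (adjusted p = 0.00859), MAFK by 0.48 (adjusted p = 0.028) and SQSTM1 by 0.80 (adjusted p = 0.000139) with siINO80#2, while with siINO80#1 they differed by 0.15, 0.42 and 0.12 and did not pass. With equal totals MAFG (0.20, adjusted p = 0.103), BACH1 (0.20, adjusted p = 0.159) and MAFK (0.37, adjusted p = 0.116) lost the call with siINO80#2. SQSTM1 was higher with siINO80#2 than with siINO80#1 by 0.68 (adjusted p = 0.00233), at 20815 ± 1619 against 13014 ± 1437. CUL3 (0.21 and 0.06, the latter -0.05 with equal totals) and MAFF (-0.12 and -0.29) did not pass with either siRNA.

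With siMCRS1 the further genes were split, where 23.1% of all genes were called higher and 24.6% lower in DMSO, and 26.8% and 26.9% in EPZ-6438. In DMSO 20 were higher and 10 lower (median 0.23), and in EPZ-6438 22 were higher and 12 lower (median 0.20). With equal totals the split was 15 higher and 16 lower, and 17 higher and 20 lower. Of all 14312 genes, that scaling called 1893 higher and 5098 lower in DMSO, and 2296 and 5316 in EPZ-6438. Quantile normalization gave 14 higher and 12 lower, and 14 higher and 15 lower, where all genes gave 3109 and 3355, and 3644 and 3630. The split of this wider list thus changed with the scaling, and with equal totals that of all genes changed too. SLC48A1, a heme transporter, fell from 343 ± 0.780 normalised counts (SD, n = 2) to 94.6 ± 14.4 (n = 3) in DMSO, by 1.86 on the log2 scale (adjusted p = 5.89e-05), and by 2.11 in EPZ-6438 (adjusted p = 1.74e-05). BLVRB, a biliverdin reductase, fell from 379 ± 10.3 to 134 ± 5.44 in DMSO, by 1.49 (adjusted p = 2.56e-05), and by 1.67 in EPZ-6438 (adjusted p = 9.56e-06). GGT1, which breaks down glutathione outside the cell, fell from 1153 ± 265 to 469 ± 138 in EPZ-6438, by 1.30 (adjusted p = 0.00255). Among carbonyl, quinone, heme and iron genes 3 were higher and 4 lower in DMSO, and 4 higher and 6 lower in EPZ-6438 (3 and 8 with equal totals).

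The smaller lists held few genes, and their counts stand beside shares of all genes of 20.7% higher and 20.8% lower with siINO80#1, 26.6% and 28.4% with siINO80#2, 23.1% and 24.6% with siMCRS1 in DMSO and 26.8% and 26.9% in EPZ-6438. Of 8 genes of glutathione use, 5 were lower with siINO80#1 and none higher, 5 were lower and 1 higher with siINO80#2, and with siMCRS1 2 were higher and 3 lower in DMSO and 2 higher and 2 lower in EPZ-6438. Of 11 thioredoxin and peroxiredoxin genes, 1 was higher and 4 lower with siINO80#1, 1 higher and 6 lower with siINO80#2, 2 higher and 2 lower with siMCRS1 in DMSO, and 4 higher and 2 lower in EPZ-6438. Of 5 genes of NADPH supply, 1 was higher and 3 lower with siINO80#1, 1 higher and 4 lower with siINO80#2, 1 higher and 1 lower with siMCRS1 in DMSO, and none higher and 2 lower in EPZ-6438. With equal totals siMCRS1 gave, in DMSO and EPZ-6438, 1 higher and 3 lower and 1 higher and 4 lower for glutathione use. For thioredoxin and peroxiredoxin genes it gave 1 higher and 3 lower and 2 higher and 4 lower. For NADPH supply it gave none higher and 3 lower in both. These counts stand beside 1893 higher and 5098 lower of all 14312 genes in DMSO, and 2296 and 5316 in EPZ-6438, under the same scaling. EPZ-6438 against DMSO in NTG cells called 1 of the 55, PRDX5, a peroxiredoxin, which rose from 1793 ± 218 (n = 2) to 2773 ± 243 normalised counts (n = 3), by 0.63 (adjusted p = 0.0445), and this call was lost when any library was left out.

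**Figure D5:**
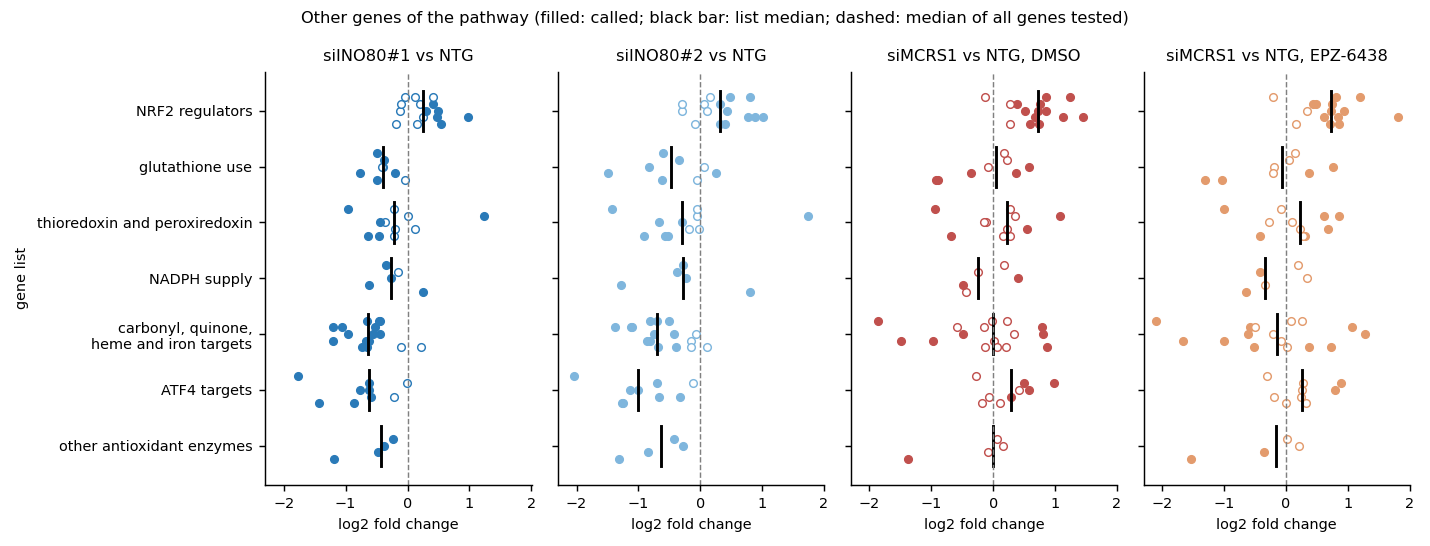
Log2 fold change (x axis) of the other pathway genes, of ATF4 targets and of other antioxidant enzymes, by list (y axis), in the comparisons of siINO80#1, siINO80#2 and siMCRS1 with NTG. Each point is a gene, filled where called, the black bar is the list median and the dashed line the median of all genes tested. The carbonyl, quinone, heme and iron list has a median of -0.63 and -0.69 with the siINO80 siRNAs, and the NRF2 regulators have a median of 0.72 with siMCRS1 in DMSO.

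SLC7A11 is also a target of ATF4, the transcription factor of the amino acid response, and 10 genes of that response were listed, of which 9 were tested. With siINO80#1, 7 were lower and none higher (median -0.62), and with siINO80#2, 8 were lower and none higher (median -1.01), against 20.8% and 28.4% of all genes called lower and 20.7% and 26.6% called higher. Without the siINO80#2 library C 8 were lower and none higher (median -0.98). PHGDH, the first enzyme of serine synthesis, fell from 2702 ± 213 normalised counts to 789.9 ± 71.2 and 671 ± 194, by 1.77 (adjusted p = 3.2e-05) and 2.05 (adjusted p = 6.02e-06), ASNS, asparagine synthetase, by 1.42 and 1.27, and PSAT1, of the same serine pathway as PHGDH, by 0.87 and 1.24. With siMCRS1, 4 were higher and none lower in DMSO, against 23.1% higher and 24.6% lower of all genes. In EPZ-6438 2 were higher and none lower (1 lower by edgeR), against 26.8% and 26.9%. With equal totals the list gave 1 higher and 2 lower in DMSO, and 2 higher and 3 lower in EPZ-6438. Of all 14312 genes, that scaling called 1893 higher and 5098 lower in DMSO, and 2296 and 5316 in EPZ-6438. TRIB3, a pseudokinase induced by ATF4, rose from 4028 ± 225 to 7962 ± 1041 in DMSO, by 0.98 (adjusted p = 0.000524), and by 0.88 in EPZ-6438 (adjusted p = 0.000726). CTH, which makes cysteine from cystathionine, rose by 0.58 (adjusted p = 0.0118) and 0.79 (adjusted p = 0.00176), and DDIT3, which encodes CHOP, rose by 0.50 in DMSO (adjusted p = 0.0241).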

How the data were processed

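RNA was extracted with Trizol and a column kit from HepG2 cells and sequenced from stranded poly(A) libraries, per the labels. The authors deposited, for each experiment, a table of normalised counts per gene symbol, a signal scaled by size factors. The submitters' processing notes name kallisto, DESeq2 and GRCh38 without versions or roles, and the annotation and strand setting are not given in the sources used here. The values were whole multiples of a step per library in 100% of cases (tolerance 0.001), which gave the reads.

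log2(normalised count + 1) was fitted with limma 3.58.1 in R 4.3.3 (trended eBayes after lmFit), with all groups of a table in 1 fit, for genes with a mean of at least 10. Calls are Benjamini-Hochberg adjusted p under 0.05 over all genes tested, and fold changes are on this scale. Alternatives were pseudocounts of 0.1 and 5, no filter, a mean of at least 50, equal totals, quantile normalization, eBayes without a trend, edgeR 4.0.16 and DESeq2 1.42.0 on the recovered reads, only the groups compared, a replicate block, and each library left out. The fits were also run on simulated counts with the same spread for every gene and no outlying library. That does not show how they perform on these libraries.

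The 9 genes and all lists were chosen with earlier results of these data known. Named genes outside the 9 were the regulators BACH1, CUL3, MAFF, MAFG, MAFK and SQSTM1 and, per comparison and set of lists, up to 3 called genes with a mean of at least 50 and the largest change. Between siINO80#1 and NTG libraries, all 3 same-letter pairs of deviations correlated weakly, at 0.135 to 0.263, and the pairs with other letters at -0.219 to -0.042. The labels do not tie a letter to a shared culture, and the main fit did not use the letters. Levels per kilobase used GENCODE canonical transcripts, and figures matplotlib 3.10.9.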

Additional observations from a re-analysis of the deposited data

Results flagged for a closer look

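NFE2L2 was lower with siINO80#2 than with siINO80#1 by -0.31 on the log2 scale (limma, adjusted p = 0.0373) in the test of the difference between the siRNAs, whose effects share the NTG libraries. The siINO80#2 libraries held 3886, 3452 and 4283 normalised counts and the siINO80#1 libraries 5189, 4305 and 4874, without overlap. HMOX1 was lower in the same comparison by -0.30 (adjusted p = 0.048), at 591, 559 and 491 against 699, 728 and 598, also without overlap. Both calls are fragile. That of NFE2L2 was lost in 10 of 20 alternatives, with an adjusted p of 0.0111 to 0.137 over all of them, and that of HMOX1 in 12 of 20, with 0.0301 to 0.166. Without the siINO80#2 library C, NFE2L2 differed by -0.38 (adjusted p = 0.0111) and HMOX1 by -0.23 (adjusted p = 0.108). INO80 mRNA was also lower with siINO80#2, by -0.40 (adjusted p = 0.00577), and its part in these differences was not tested.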

How the results depend on the processing

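Of the 25 called log2 fold changes of the 9 genes, 0 changed sign in 507 alternatives and 60 of these lost the call. GCLC, GCLM, TXNRD1 and SRXN1 with siMCRS1 in both treatments, and GCLC and NQO1 with both siINO80 siRNAs, kept their calls in every alternative run. Of 942 alternatives on the changes not called, 12 gained a call, 56 changed sign, and 1 did both. The causes were not tested. With equal totals TXNRD1 was -0.028 with siINO80#1, -0.029 with siINO80#2 and -0.0012 between them, NQO1 was -0.21 and -0.062 with siMCRS1 in DMSO and EPZ-6438, and KEAP1 was 0.016 for EPZ-6438 against DMSO in NTG. With quantile normalization TXNRD1 with siINO80#1 was -0.040, NQO1 with siMCRS1 -0.40 and -0.21, KEAP1 for EPZ-6438 in NTG 0.075, and the interactions of NFE2L2 and KEAP1 -0.029 and -0.029. With edgeR KEAP1 was 0.011 for EPZ-6438 in NTG and -0.0036 in the interaction. With a replicate block by column number NQO1 with siMCRS1 in DMSO was -0.025. For EPZ-6438 in NTG that fit gave -0.062 for NFE2L2, -0.069 for HMOX1 and -0.83 for SLC7A11 (adjusted p = 0.0128), the 1 member then called. It left out both EPZ-6438 with siMCRS1 libraries, which have letters, and called 1161 genes in all. The main fit of all 10 libraries called 55, and the fit of only the groups compared called 128, both without a block. The labels do not tie the column numbers to a shared culture, and only 2 pairs exist. The letter block called GCLM with siINO80#2 (0.25, adjusted p = 0.0474) and SRXN1 between the siRNAs (0.31, adjusted p = 0.0201), and changed no call of the 9 with siINO80#1. Same-letter deviations correlated at -0.08 to 0.26 (mean 0.10) and same-number ones at -0.02 to 0.30 (mean 0.21). Pairs with other letters correlated at -0.25 to 0.10 (mean -0.05), and pairs with other numbers at -0.30 to 0.04 (mean -0.10).

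Between the siRNAs 2 members were called, but 0 without a filter, without a trend and with only the groups compared, and 1 with equal totals or quantile normalization. Of the further pathway genes, 1 was called for EPZ-6438 in NTG, but 0 without a filter, without a trend or with only the groups compared, 2 with equal totals or quantile normalization, 4 with DESeq2 and 7 with the block by column number, and DESeq2 called 2 in siMCRS1 cells. With single libraries left out, members called ranged from 2 to 4 with siINO80#1 (2 without its library C) and 0 to 2 between the siRNAs, and further pathway genes from 21 (without the EPZ-6438 with siMCRS1 library B) to 34 with siMCRS1 in EPZ-6438, and were 0 for EPZ-6438 in NTG. Over the same fits SRXN1 with siINO80#2 ranged from -0.16 to 0.023, and between the siRNAs KEAP1 from -0.21 to 0.028, TXNRD1 from -0.053 to 0.084 and NQO1 from -0.22 to 0.043. With siMCRS1 NQO1 ranged from -0.097 to 0.15 in DMSO, and HMOX1 from -0.17 to 0.14 in DMSO and -0.37 (adjusted p = 0.0418) to 0.058 in EPZ-6438. For EPZ-6438 in NTG NFE2L2 ranged from -0.073 to 0.11, KEAP1 from -0.13 to 0.11 and HMOX1 from -0.13 to 0.30. In siMCRS1 cells NFE2L2 ranged from -0.027 to 0.21, KEAP1 from -0.075 to 0.067, GCLC from -0.051 to 0.20, GCLM from -0.090 to 0.14, SRXN1 from -0.14 to 0.070, NQO1 from -0.054 to 0.20 and HMOX1 from -0.15 to 0.041. The interactions of NFE2L2, KEAP1 and HMOX1 ranged from -0.047 to 0.19, -0.10 to 0.13 and -0.35 to 0.076. Where a group was left with 1 library, that library was assumed to vary like the other groups.

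Over all genes, equal totals turned 3307 higher and 3523 lower with siMCRS1 in DMSO into 1893 and 5098, and 3839 and 3847 in EPZ-6438 into 2296 and 5316. Groups of 2 or 3 libraries limit the precision of every interval, and depth did not limit the 9 genes.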

Other observations

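Antioxidant enzymes listed apart from the pathway genes above were lower with the siINO80 siRNAs. All 4 listed, CAT, GPX1, SOD1 and SOD2, fell with both, against 20.8% and 28.4% of all genes called lower. Of all genes, 20.7% and 26.6% were called higher. The median change of the 4 on the log2 scale was -0.43 for siINO80#1 and -0.63 for siINO80#2. CAT, the peroxisomal catalase, fell by 1.18 (adjusted p = 2.55e-06) and 1.32 (adjusted p = 5.45e-07). With siMCRS1 it also fell, by 1.38 in DMSO (adjusted p = 0.000231) and 1.53 in EPZ-6438 (adjusted p = 8.49e-05). GPX1, a glutathione peroxidase, fell by 0.48 and 0.85 with the siINO80 siRNAs and by 0.35 with siMCRS1 in EPZ-6438 (adjusted p = 0.0302), and differed by -0.09 in DMSO (adjusted p = 0.573). Of the 4, siMCRS1 called 1 lower and none higher in DMSO, against 24.6% and 23.1% of all genes. In EPZ-6438 it called 2 lower and none higher, against 26.9% and 26.8%.

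NFE2L3, a relative of NFE2L2 that was named after its values were seen, rose with siINO80#1 by 0.98 (adjusted p = 1.17e-05), with siINO80#2 by 0.88 (adjusted p = 1.12e-05), and with siMCRS1 by 1.14 in DMSO (adjusted p = 0.00162) and 0.84 in EPZ-6438 (adjusted p = 0.00732).

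Over all 19 libraries, each centred on its table, the most similar of 13534 genes was FEM1B for GCLC (r = 0.982), RBM3 for GCLM (0.961), FAM126B for SLC7A11 (0.953), IBTK for TXNRD1 (0.972, but 0.314 within the INO80 experiment) and YKT6 for SRXN1 (0.958). It was ATP5B for NQO1 (0.965), TMPPE for HMOX1 (0.893), ARCN1 for NFE2L2 (0.957) and RACK1 for KEAP1 (0.9753). Among the 9, GCLC and GCLM had r = 0.958, at 0.592 in the INO80 experiment and 0.982 in the drug experiment. GCLC and NQO1 had r = -0.84 in the former and 0.45 in the latter. These are descriptions over libraries that share groups and scaling.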
